A study of Mus musculus with 10 samples.

Results

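The genes described are 10 inhibitory and checkpoint receptors of myeloid cells (Lilrb4a, Pirb, Pilra, Cd300a, Cd33, Siglece, Sirpa, Havcr2, Lag3 and Cd274), taken by symbol from a deposited table of 19782 genes, and all 10 were found and passed the filter on low counts. The 10 RNA-seq libraries were made from mouse hippocampal microglia, the brain's own macrophages, isolated as CD45low CD11b+ cells. The repopulated group (3 libraries) came from 5xFAD mice that were given PLX3397, which blocks the CSF1 receptor that microglia need to survive, from 4 months of age for 1 month at 290 mg/kg in chow, and then normal chow for 1 month, during which microglia returned. The control group (3 libraries) came from 5xFAD mice on normal diet, and the wild-type group (4 libraries) from WT mice on normal diet. 5xFAD mice carry mutant human transgenes under the Thy1 promoter, which is active in neurons, and deposit amyloid. No PLX3397-treated wild-type group was analysed here, and the labels give no age or strain background for the control and wild-type mice. Nor do they state that each library of a group is a different animal. The p-values therefore reflect variation among these libraries alone, which may be technical.

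Most of these receptors carry an immunoreceptor tyrosine-based inhibitory motif (ITIM) in the cytoplasmic tail. Once phosphorylated by Src-family kinases, the motif recruits the phosphatases SHP-1, SHP-2 or SHIP-1, which oppose signals from receptors that use the activating adaptors DAP12 (Tyrobp) and FcRγ (Fcer1g), such as TREM2. The checkpoint molecules Havcr2 (TIM-3) and Lag3 lack a classical ITIM and are best known from exhausted T cells, and Cd274 (PD-L1) is the ligand of the checkpoint receptor PD-1. Several of the receptors have a near-identical activating partner encoded nearby, among them Pirb with the Pira genes and Pilra with Pilrb1 and Pilrb2.

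Library totals lay between 18501136 and 23286814 estimated counts, and no member had fewer than 200 counts in any library. Summed over 12 genes, microglial markers reached 44806 to 60506 CPM (counts relative to library size, scaled by TMM factors) in repopulated, 55071 to 60149 in control and 52353 to 63635 in wild-type libraries, and 7 of the 12 were lower in control than in wild-type libraries, among them Tmem119 and Cx3cr1. Of 10 listed T cell markers 7 were found, 3 were tested and 0 were called. T cell markers summed to at most 5.83 CPM and NK cell markers to at most 3.63 CPM in any library. Ncr1 and Gzmb were at 0 in all 10, although Lag3, Havcr2 and Pdcd1 are also lymphocyte genes. So are Cd5 and Btla, called higher in both 5xFAD groups than in wild type. Cd5 averaged 9.33 CPM in control and 0.301 CPM in wild-type libraries, and Btla 5.99 and 0.141 CPM (edgeR adjusted p = 3.94e-05 and 0.000128). The NK cell marker Klrb1c was low but called higher in both 5xFAD groups than in wild type, at 1.62 ± 0.626 CPM in repopulated, 1.79 ± 1.12 CPM in control and 0.0804 ± 0.0989 CPM in wild-type libraries (SD, n = 3, 3 and 4, edgeR adjusted p = 0.0135 and 0.00394), and its part in the receptor differences was not tested. Wild-type 3 stood apart, with 281 CPM of erythrocyte and 59.1 CPM of neuronal markers, against at most 20.7 and 12.8 CPM in the other libraries. Y-linked transcripts were nearly absent from control 1, control 3 and wild-type 2, at most 16.01 CPM on unscaled totals against at least 341.9 CPM in the other 7 libraries, so this split runs unevenly across the groups. Neutrophil markers summed to 67.4 to 174 CPM in repopulated, 19.1 to 335 CPM in control and 32.8 to 259 CPM in wild-type libraries, were lowest in those same 3 libraries and highest in control 2 and wild-type 3, and 0 of the 7 tested were called. Border-associated macrophage markers summed to 68.4 to 112, 83.3 to 147 and 75.8 to 128 CPM in the same group order. Monocyte markers summed to 21.5 to 27.2, 21.2 to 43.5 and 23.6 to 49.2 CPM. Of 9 macrophage and 6 monocyte markers tested, only Folr2 and Fn1 were called between control and wild type. Both were higher in control (edgeR adjusted p = 0.00336 and 0.000642). The part of these cells in the receptor differences was not tested.

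Compared per length, as the authors' deposited TPM (transcript abundance scaled for length and depth), the 10 receptors spanned a wide range of levels, and Sirpa, the receptor for the "don't eat me" signal CD47, was the highest in every group. It averaged 807 ± 91.7 TPM in repopulated, 643 ± 40.4 TPM in control and 879 ± 274 TPM in wild-type microglia (SD, n = 3, 3 and 4). Lag3, Havcr2, Cd300a and Cd33 formed the next tier, between 86 and 295 mean TPM in each group. In the control group Lilrb4a joined this tier at 151 ± 21.7 TPM, level with Cd300a at 151 ± 9.21 TPM. The repopulated group had Lilrb4a at 95.4 ± 15.5 TPM, in sixth place, and wild-type microglia had it at 15.1 ± 3.21 TPM, second from the bottom. Pirb was lowest in both 5xFAD groups, at 12.6 ± 1.47 TPM in repopulated and 7.69 ± 1.87 TPM in control libraries, and Cd274 was lowest in wild-type libraries at 8 ± 1.74 TPM. Several neighbours in these orders overlapped in their libraries. In repopulated microglia Havcr2 was above Cd300a in every library (212 to 228 against 183 to 209 TPM). Wild-type microglia had the reverse order, with Havcr2 at 202 to 247 TPM and Cd300a at 263 to 291 TPM. Lag3 ran from 156 to 338 TPM there and could not be ordered against either.

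**Figure D1:**
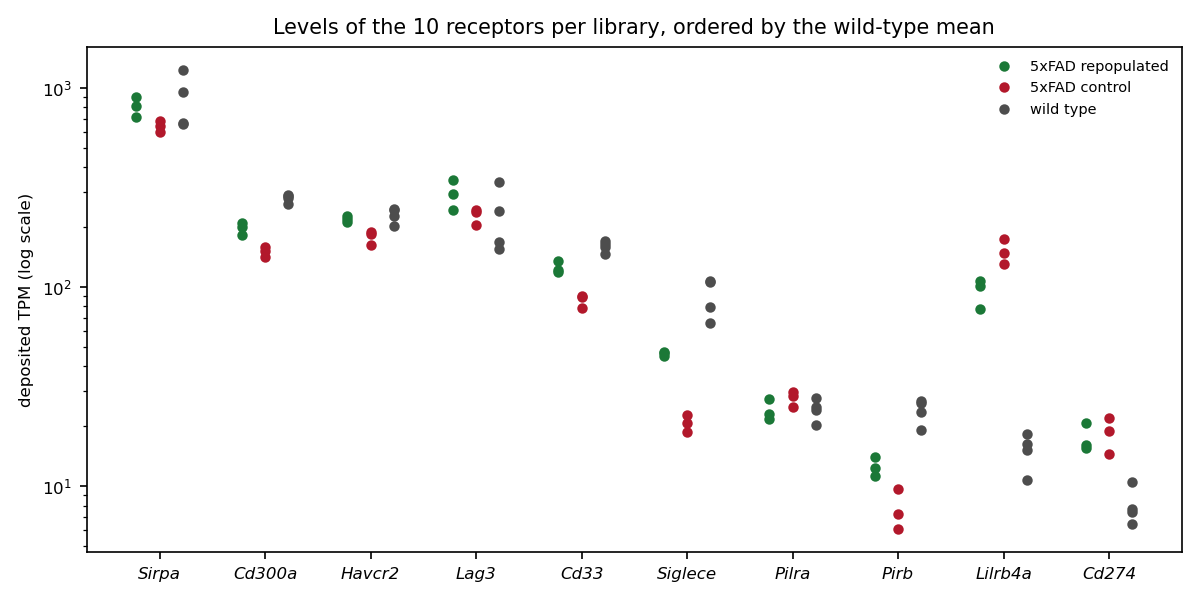
Deposited TPM of the 10 receptors in each library on a log axis, ordered from left to right by the wild-type mean, with repopulated, control and wild-type libraries side by side. Sirpa lies highest in all 3 groups, and Lilrb4a has the widest gap between its control libraries (130 to 174 TPM) and its wild-type libraries (10.7 to 18.2 TPM).

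The comparison of control 5xFAD with wild-type microglia asks how the receptors differ between mice with and without the amyloid transgenes. They moved in both directions: Lilrb4a, Cd274 and Pilra were higher in control 5xFAD microglia, and Siglece, Pirb, Cd33 and Cd300a were lower. These 7 of 10 were called at an adjusted p below 0.05 with edgeR's quasi-likelihood test (Benjamini-Hochberg adjustment over 12505 genes), against 18.1% of all genes tested, and the same 7 had groups that did not overlap, against 26.7% of all genes (14.1% above and 12.6% below). The 3 higher and 4 lower members stand beside 10.1% and 8.04% of all genes called in those directions, and the members' median log2 fold change was -0.07, against -0.06 for all genes tested. RNA of this kind is relative, so fewer cells carrying a transcript and less of it per cell cannot be told apart.

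Lilrb4a encodes gp49B, an ITIM receptor of myeloid and mast cells whose human counterpart LILRB4 has been reported to bind apolipoprotein E. It reached 170, 144 and 197 CPM in control libraries, against 14.5, 9.5, 13.9 and 13.3 CPM in wild-type libraries. The lowest control library lay far above the highest wild-type one, and the change was 13.3-fold (log2 3.74, SE 0.18, edgeR adjusted p = 5.93e-09). Estimated counts of Lilrb4a were not whole in any library, as can occur where reads are divided among similar genes, and its near-identical neighbour Lilr4b took 1.3% to 1.94% of the pair's counts in control and 6.99% to 10.4% in wild-type libraries. The summed dendritic cell markers were also higher in those libraries, at 165 to 199 CPM in control and 25.3 to 49.5 CPM in wild-type libraries. Of these only Itgax was called, and it made up most of the sum in control libraries but not in wild-type libraries, where Cd209a was higher, at 18.7 ± 11 CPM. Itgax, which microglia near plaques also express, averaged 139 ± 38.2 CPM in control and 8.13 ± 2.93 CPM in wild-type libraries (SD, n = 3 and 4), while Flt3 stayed under 1 CPM on average in each group. The part of dendritic cells in the Lilrb4a difference was not tested.

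Cd274, the ligand of PD-1, had 47.7, 34.2 and 55.0 CPM in control libraries, against 11.4, 15.8, 22.4 and 14.2 CPM in wild-type libraries. The groups did not overlap, and Cd274 was 2.86-fold higher in control microglia (log2 1.52, SE 0.22, edgeR adjusted p = 0.000243). Pdcd1, which encodes PD-1 itself, averaged 19.2 ± 7.96 CPM in control and 3.85 ± 2.79 CPM in wild-type libraries (log2 2.32, SE 0.51, edgeR adjusted p = 0.00868), and the second PD-1 ligand gene Pdcd1lg2 was too low to test. Cd274 overlaps Plgrkt and Gm36043 in the annotation, and the strand setting of the counting is not given in the sources used here, so reads of these genes may be mixed.

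Pilra, an ITIM receptor that binds sialylated O-glycoproteins such as PIANP, had 43.3, 49.2 and 48.9 CPM in control libraries, against 33.8, 33.5, 36.5 and 26.6 CPM in wild-type libraries. Every control library was above every wild-type one, by 1.45-fold overall (log2 0.53, SE 0.15, edgeR adjusted p = 0.0267). The call was lost without any 1 of control 1, control 2, control 3 and wild-type 4 (adjusted p 0.0524 to 0.082), with correction for GC content and length (log2 0.40, adjusted p = 0.0699) and on the TPM scale (log2 0.19, limma adjusted p = 0.334). Counts of Pilra were not whole in any library. Its activating partners Pilrb1 and Pilrb2 averaged at most 1.65 CPM in any group, and neither was called. Those levels may come from the same division of reads, so they cannot tell how far reads were shared. Pilra overlaps Zcwpw1 in the annotation, with the same doubt over strand.

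Siglece, the main ITIM-bearing Siglec of mouse myeloid cells, which recognises sialic acids on cell surfaces, had 27.8, 31.9 and 31.1 CPM in control libraries, against 104, 74.2, 86.2 and 106 CPM in wild-type libraries. The groups lay far apart, and Siglece was 3.06-fold lower (log2 -1.61, SE 0.16, edgeR adjusted p = 6.56e-06). Cd33, another sialic acid-binding Siglec and the mouse counterpart of a gene linked to Alzheimer's disease risk in humans, had 133, 142 and 151 CPM in control libraries, against 203, 223, 206 and 202 CPM in wild-type libraries. It was 1.47-fold lower, with tight groups that did not overlap (log2 -0.56, SE 0.11, edgeR adjusted p = 0.00364). Siglece overlaps Ceacam18 and Ctu1 in the annotation, so its reads carry the same doubt over strand as those of Cd274, whereas the counts of Cd33 were whole in every library.

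Pirb, an ITIM receptor for MHC class I molecules, had 10.1, 10.9 and 15.9 CPM in control libraries, against 27.1, 25.9, 39.5 and 32.0 CPM in wild-type libraries. The groups did not overlap, and Pirb was 2.52-fold lower in control microglia (log2 -1.33, SE 0.21, edgeR adjusted p = 0.000446). Its counts were not whole in any library either, and the activating partners in the table, Pira1 and Pira2, averaged at most 2.38 CPM in any group and were not called. The other Pira genes listed were not in the table. Levels of partners may come from the same division of reads, so they cannot tell how far reads were shared. Cd300a, an ITIM receptor for phosphatidylserine and phosphatidylethanolamine on dying cells, had 176, 181 and 197 CPM in control libraries, against 255, 264, 295 and 274 CPM in wild-type libraries. It was 1.47-fold lower without overlap (log2 -0.56, SE 0.12, edgeR adjusted p = 0.00534). The estimated counts of Cd300a were also not whole in any library, and how far reads were shared with similar genes was not tested. The microglial marker Tmem119 was also lower, at 640 ± 121 CPM in control and 1570 ± 291 CPM in wild-type libraries (SD, n = 3 and 4, edgeR adjusted p = 0.000137), and the part of such markers in the lower receptors was not tested.

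Sirpa, Havcr2 and Lag3 were not called, and their groups overlapped. Sirpa had 1241, 1264 and 1405 CPM in control libraries, against 1813, 1123, 1170 and 1522 CPM in wild-type libraries (log2 -0.11, SE 0.17, edgeR adjusted p = 0.688). Havcr2, which binds galectin-9, phosphatidylserine and CEACAM1, had 341, 281 and 344 CPM in control libraries, against 296, 298, 378 and 342 CPM in wild-type libraries (log2 -0.03, SE 0.13, edgeR adjusted p = 0.912). Lag3, a CD4-like receptor for MHC class II, had 311, 254 and 314 CPM in control libraries, against 310, 163, 185 and 236 CPM in wild-type libraries (log2 0.39, SE 0.19, edgeR adjusted p = 0.17). The Lag3 comparison turned on wild-type 1, without which Lag3 was called higher in control libraries (log2 0.60, adjusted p = 0.0221). It was also called after correction for GC content and length (log2 0.65, adjusted p = 0.00192). Its transcript has a GC content of 59.9%, at percentile 96.5 of the genes tested. On the deposited TPM scale, which lowers the median of all genes by 0.30 log2 units in this comparison, Havcr2 was called lower (log2 -0.36, limma adjusted p = 0.0275).

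**Figure D2:**
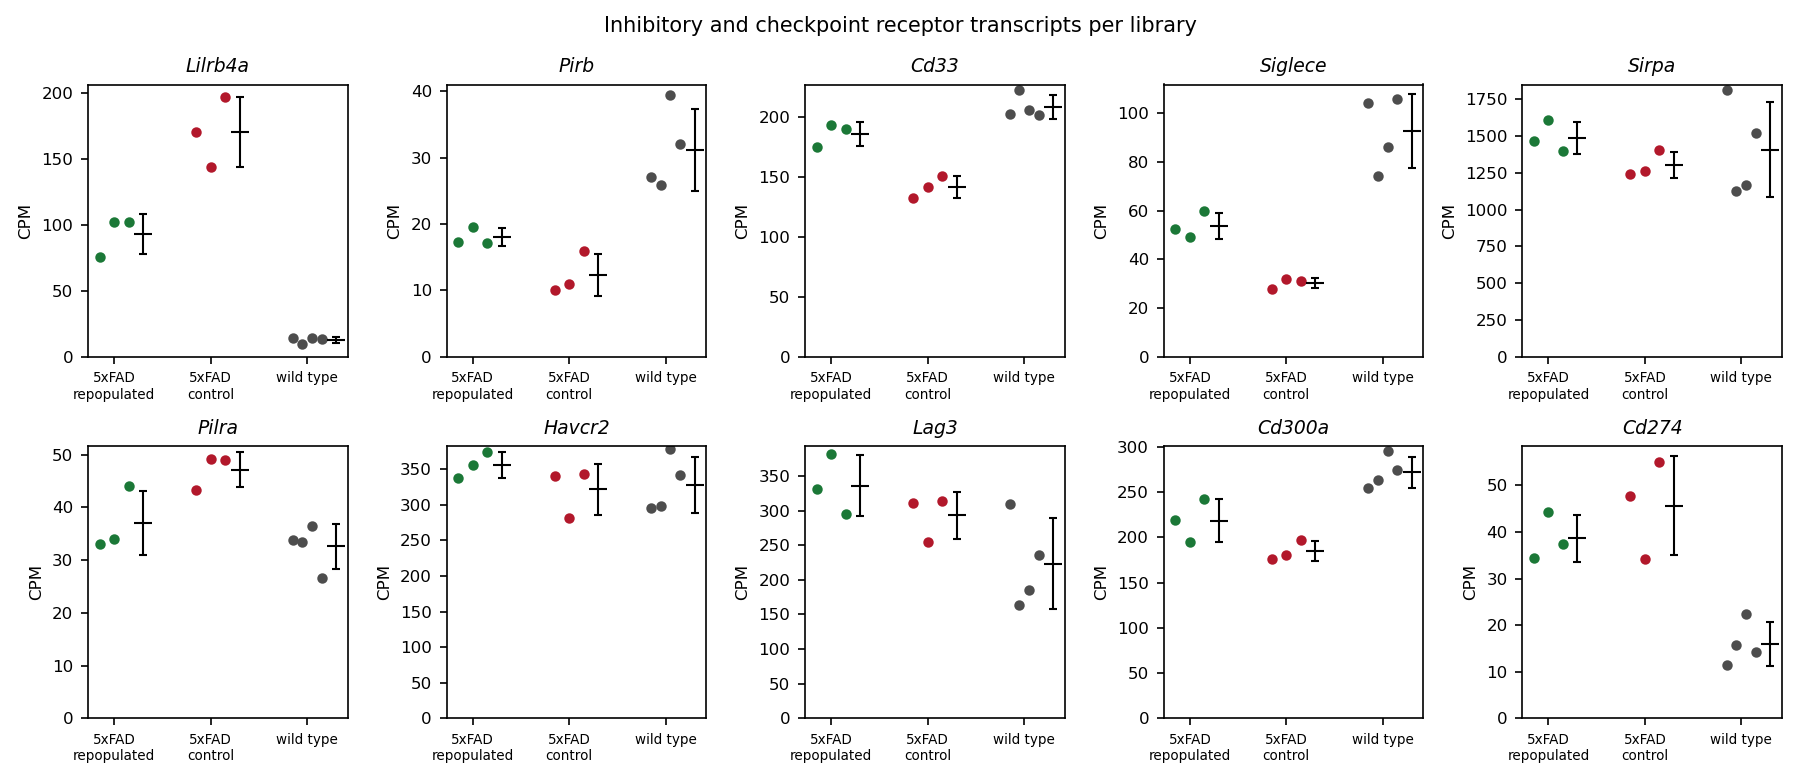
CPM of each receptor in every library (points), with the mean and SD of each group (bars), for repopulated 5xFAD, control 5xFAD and wild-type microglia. Lilrb4a, Pirb, Cd33 and Siglece have repopulated libraries that all lie between the other groups, while those of Sirpa, Havcr2 and Lag3 overlap with both.

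Leaving out the 3 libraries in which Y-linked transcripts were nearly absent leaves control 2 alone in its group, assumed to vary like the others, and 3 of the 10 members then kept their calls against wild type. Lilrb4a was higher and Pirb and Siglece were lower, while Cd274 (log2 1.11, adjusted p = 0.0599), Pilra (0.62, 0.157), Cd300a (-0.59, 0.087) and Cd33 (-0.51, 0.0959) kept their direction and lost the call. With Y-linked status as a term in the model, 6 of the 7 calls held, and Pilra had an adjusted p of 0.0608. All 7 calls held without wild-type 3, the library with erythrocyte and neuronal transcripts.

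The comparison of repopulated with control 5xFAD microglia asks how the receptors differ once the cells have been removed and have returned in the same transgenic line. Lilrb4a was lower and Siglece higher in repopulated microglia, and the other 8 members were not called. These 2 of 10 stand beside 0.568% of all genes called in this comparison, 0.352% higher and 0.216% lower. The groups did not overlap for 4 of 10 members (3 above, 1 below), against 30.7% of all genes tested (15% above, 15.7% below), and the members' median log2 fold change was 0.19, with that of all genes close to 0.

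Lilrb4a had 75.3, 102 and 102 CPM in repopulated libraries, against 170, 144 and 197 CPM in control libraries. All 3 repopulated libraries were below all 3 control libraries, by 1.83-fold overall (log2 -0.87, SE 0.18, edgeR adjusted p = 0.0496). Siglece had 52.3, 49.3 and 59.8 CPM in repopulated libraries, against 27.8, 31.9 and 31.1 CPM in control libraries. It was 1.78-fold higher without overlap (log2 0.83, SE 0.16, edgeR adjusted p = 0.0354). Tmem119 was also higher in repopulated microglia, at 1181 ± 85.9 CPM against 640 ± 121 CPM in control libraries (edgeR adjusted p = 0.0468). Dendritic cell markers summed to 122 to 136 CPM in repopulated and 165 to 199 CPM in control libraries, among which Cd209a, at 4.18 ± 0.406 CPM in repopulated and 37.1 ± 21.2 CPM in control libraries, was lower (edgeR adjusted p = 0.0351). Their part in the receptor differences was not tested. Both receptor calls lay close to the threshold. That of Lilrb4a was lost without any 1 of the 6 libraries compared or wild-type 4, with adjusted p from 0.0624 to 0.233. That of Siglece was lost without any 1 of the repopulated libraries, control 1 or control 2, with adjusted p from 0.0961 to 0.174. Both were lost with correction for GC content and length (adjusted p 0.121 and 0.0609), with Y-linked status as a term (0.144 and 0.165) and without the 3 libraries low in Y-linked transcripts (0.149 and 0.0968). On the TPM scale, which raises the median of all genes by 0.14, the call of Lilrb4a was lost (log2 -0.66, limma adjusted p = 0.109) and that of Siglece was kept. The direction held in each of these fits.

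Pirb and Cd33 also had repopulated libraries that were all above the control libraries, but neither passed the test. Pirb had 17.3, 19.6 and 17.2 CPM in repopulated libraries, against 10.1, 10.9 and 15.9 CPM in control libraries (log2 0.55, SE 0.22, edgeR adjusted p = 0.196). Cd33 had 175, 194 and 190 CPM in repopulated libraries, against 133, 142 and 151 CPM in control libraries (log2 0.39, SE 0.12, edgeR adjusted p = 0.123). DESeq2 called Cd33 higher in repopulated microglia (log2 0.37, adjusted p = 0.0264), and so did limma on the TPM scale (log2 0.54, adjusted p = 0.0472).

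For the 6 other members the groups overlapped. Cd300a had 219, 195 and 242 CPM in repopulated libraries, against 176, 181 and 197 CPM in control libraries (log2 0.24, edgeR adjusted p = 0.323). Cd274 had 34.3, 44.2 and 37.5 CPM in repopulated libraries, inside the range of 34.2 to 55.0 CPM in control libraries (log2 -0.24, edgeR adjusted p = 0.624). Pilra, with 33.0, 34.1 and 44.1 CPM in repopulated libraries against 43.3, 49.2 and 48.9 CPM in control libraries, gave a log2 fold change of -0.35 (edgeR adjusted p = 0.278). Havcr2 (338, 356 and 374 CPM in repopulated libraries), Lag3 (331, 382 and 295 CPM) and Sirpa (1463, 1608 and 1395 CPM) had log2 fold changes between 0.14 and 0.20 (edgeR adjusted p 0.607 to 0.642).

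**Figure D3:**
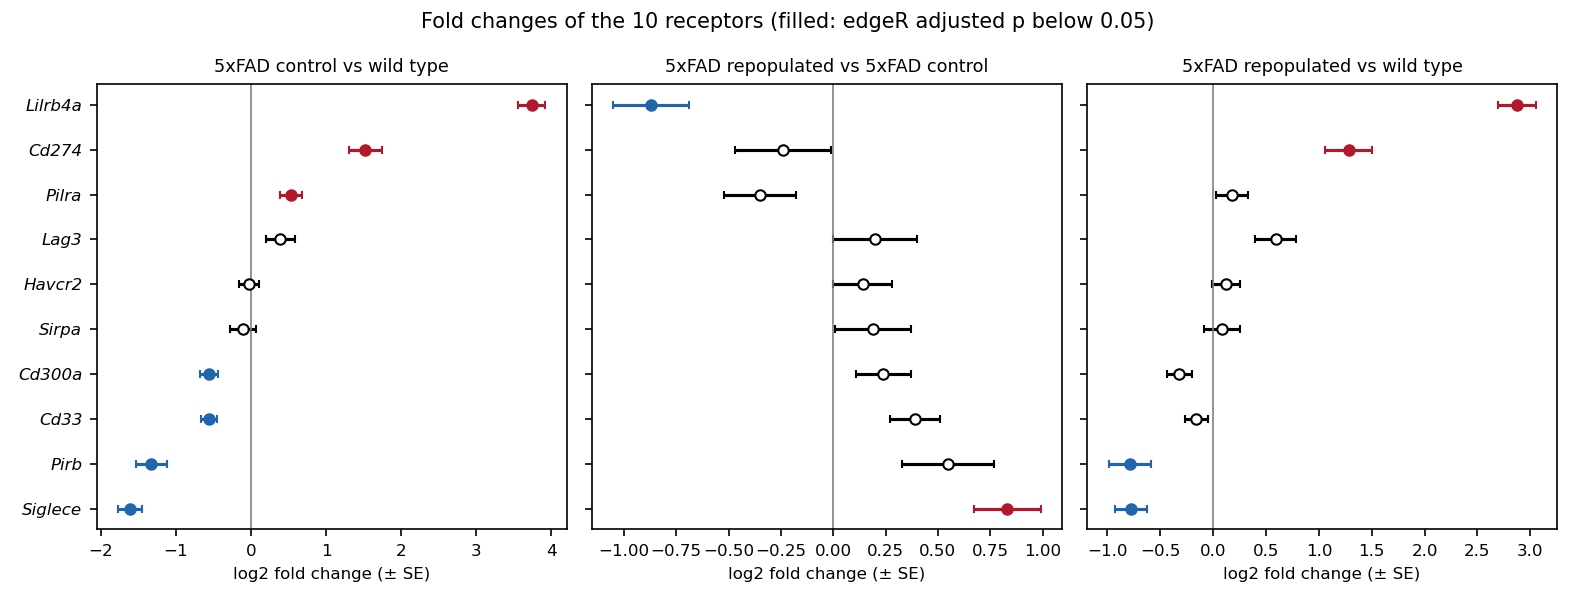
Log2 fold change of each receptor with its SE in the 3 comparisons, with the numerator group named first in each panel and a separate horizontal scale per panel. Filled points passed an edgeR adjusted p of 0.05, in red where higher and blue where lower. Lilrb4a and Siglece are the filled points in the repopulated against control panel, at -0.87 and 0.83.

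The comparison of repopulated 5xFAD with wild-type microglia asks how far the returned cells differ from those of mice without the transgenes. It shares its libraries with both comparisons above, so its values are not independent of theirs. Lilrb4a and Cd274 were higher and Siglece and Pirb lower in repopulated microglia, 4 of 10 members against 4.18% of all genes (3.4% higher, 0.784% lower). Groups did not overlap for 6 of 10 members (2 above, 4 below), against 16% of all genes (9.13% above, 6.82% below), and the median log2 fold change was 0.10 for the members and -0.02 for all genes. Lilrb4a, at 75.3 to 102 CPM in repopulated against 9.5 to 14.5 CPM in wild-type libraries, was 7.29-fold higher (log2 2.87, SE 0.18, edgeR adjusted p = 1.12e-07). Cd274, at 34.3 to 44.2 CPM in repopulated against 11.4 to 22.4 CPM in wild-type libraries, was 2.43-fold higher (log2 1.28, SE 0.22, edgeR adjusted p = 0.00237). Both calls held under each alternative run.

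Siglece, at 49.3 to 59.8 CPM in repopulated against 74.2 to 106 CPM in wild-type libraries, was 1.72-fold lower (log2 -0.78, SE 0.15, edgeR adjusted p = 0.00622), a call lost without repopulated 2 (adjusted p = 0.0555). Pirb, at 17.2 to 19.6 CPM in repopulated against 25.9 to 39.5 CPM in wild-type libraries, was 1.73-fold lower (log2 -0.79, SE 0.20, edgeR adjusted p = 0.0385). The Pirb call was lost without any 1 of the repopulated libraries, control 1, wild-type 3 or wild-type 4 (adjusted p 0.0501 to 0.17), with Y-linked status as a term (0.0582) and without the 3 libraries low in Y-linked transcripts (0.0523). Cd33 (log2 -0.16, adjusted p = 0.571) and Cd300a (log2 -0.32, adjusted p = 0.202) also had all repopulated libraries below all wild-type libraries and were not called with edgeR. Cd300a was called lower on the TPM scale (log2 -0.50, limma adjusted p = 0.0131), where the median of all genes shifts by -0.16. Lag3 averaged 336 ± 43.9 CPM in repopulated and 223 ± 65.2 CPM in wild-type libraries (SD, n = 3 and 4) and was not called (log2 0.59, SE 0.19, edgeR adjusted p = 0.112), but was called without wild-type 1 (log2 0.80, adjusted p = 0.00966), with DESeq2 (adjusted p = 0.0392) and after correction for GC content and length (adjusted p = 0.0336). Pilra, Havcr2 and Sirpa had log2 fold changes of 0.18, 0.12 and 0.08 and were not called.

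**Figure D4:**
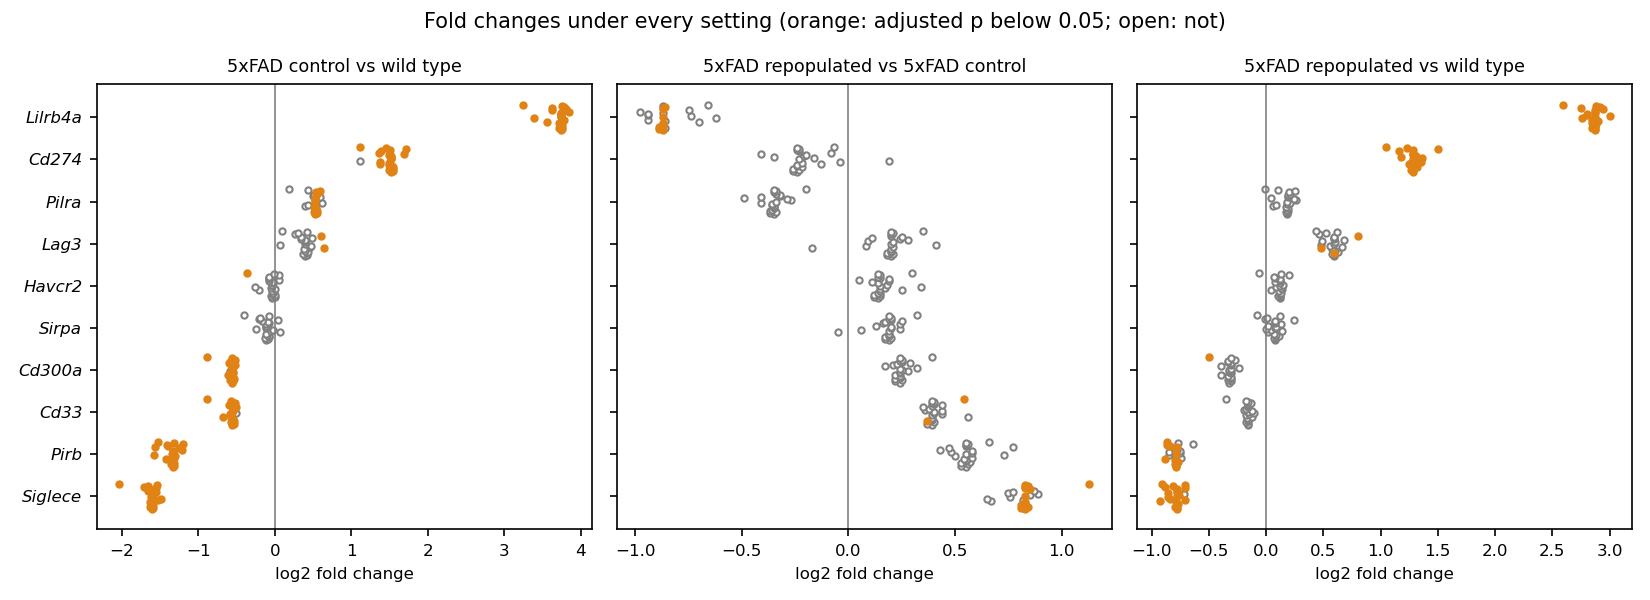
Log2 fold change of each receptor under each setting tried, 1 point per setting, filled orange where the adjusted p was below 0.05, with a separate horizontal scale per panel. The points of Lilrb4a, Siglece, Pirb, Cd33 and Cd300a keep to 1 side of 0 in all 3 panels. In the repopulated against control panel most points of Lilrb4a (-0.98 to -0.62) are open.

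Cd33 and Siglece lie near each other on chromosome 7 (43527399 to 43537424 and 43648882 to 43672044, minus strand, GRCm38.p6) and Pirb lies elsewhere on it (3712505 to 3720382, minus strand). Havcr2 (46454931 to 46481255) and Cd300a (114889152 to 114901946) lie on the plus strand of chromosome 11, Pilra on chromosome 5 (137821952 to 137836278, minus strand) and Cd274 on chromosome 19 (29362107 to 29388095, plus strand). Lilrb4a lies on chromosome 10 (51490898 to 51496613), Sirpa on chromosome 2 (129591042 to 129632228) and Lag3 on chromosome 6 (124904359 to 124912434). Promoters, the 250 bases before the start that the RefSeq promoter table uses, were available from RefSeq (GRCm38.p6) for 7 of the 10. For Siglece, Cd300a, Cd33 and Cd274 the window lies inside the span of the gene given above, not upstream of it, whereas those of Pirb, Pilra and Havcr2 adjoin the span. Those of 3 members that were lower in control microglia, of Pilra, which was higher, and of Havcr2, which was not called, are shown 5′ to 3′ on the gene's strand so that members moving in different directions can be compared. They come from chr7:43660162-43660411 (minus strand), chr7:3720383-3720632 (minus), chr11:114889791-114890040 (plus), chr5:137836279-137836528 (minus) and chr11:46454681-46454930 (plus), and capitals mark matches on either strand to GGAAGT, a core bound by PU.1 and other ETS factors, TGANTCA (AP-1) or GAAA, any 2 bases, GAAA (interferon regulatory factors).
Siglece: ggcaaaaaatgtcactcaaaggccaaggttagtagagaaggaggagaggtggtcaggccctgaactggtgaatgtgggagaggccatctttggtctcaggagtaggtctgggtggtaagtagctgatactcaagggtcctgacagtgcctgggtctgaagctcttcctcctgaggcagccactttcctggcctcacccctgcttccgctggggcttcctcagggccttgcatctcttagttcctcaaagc
Pirb: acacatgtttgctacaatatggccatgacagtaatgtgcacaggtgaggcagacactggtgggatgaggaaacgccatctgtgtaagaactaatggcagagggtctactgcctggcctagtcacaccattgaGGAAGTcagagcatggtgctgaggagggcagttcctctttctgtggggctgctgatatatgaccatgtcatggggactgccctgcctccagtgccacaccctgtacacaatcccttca
Cd300a: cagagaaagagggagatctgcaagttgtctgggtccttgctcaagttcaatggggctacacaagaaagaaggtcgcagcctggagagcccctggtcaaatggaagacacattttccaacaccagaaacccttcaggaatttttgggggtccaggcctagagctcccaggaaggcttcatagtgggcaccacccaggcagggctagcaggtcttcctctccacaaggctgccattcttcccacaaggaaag
Pilra: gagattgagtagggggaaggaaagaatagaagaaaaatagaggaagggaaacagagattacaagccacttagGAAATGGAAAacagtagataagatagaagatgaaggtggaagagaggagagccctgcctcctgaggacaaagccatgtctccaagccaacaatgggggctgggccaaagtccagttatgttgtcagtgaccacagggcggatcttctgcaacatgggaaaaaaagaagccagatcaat
Havcr2: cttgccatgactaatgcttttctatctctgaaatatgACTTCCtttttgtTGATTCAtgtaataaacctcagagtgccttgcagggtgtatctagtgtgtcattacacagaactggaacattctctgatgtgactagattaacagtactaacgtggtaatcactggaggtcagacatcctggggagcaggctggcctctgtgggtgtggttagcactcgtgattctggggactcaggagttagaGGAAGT

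GGAAGT occurred once in the window of Pirb and in that of Cd33, and at 2 places in that of Havcr2 (first bases at -213 and -6 from the start), and 19.7% of the 32851 promoter windows of the same length held it. Havcr2 also had a TGANTCA match at -200, found in 6.75% of windows, and Pilra a GAAA pair for interferon regulatory factors at -178, found in 2.98%. The windows of Siglece, Cd300a and Cd274 held none of these letters. These motifs did not overlap each other in the windows shown, and a match describes letters, not binding.

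Beside the list counts that follow, 10.1% of all genes tested were higher and 8.04% lower in control than in wild-type microglia, and 3.4% were higher and 0.784% lower in repopulated than in wild-type microglia. Among 24 other tested inhibitory or paired receptors, a list that also holds Cd84, Cd244a and Treml2, whose signals are not only inhibitory, 11 were higher and 4 lower in control than in wild-type microglia (edgeR, median log2 fold change 0.75, against -0.06 for all genes). Cd300lf, an ITIM receptor of the Cd300a family, averaged 25.2 ± 5.5 CPM in control and 2.02 ± 0.994 CPM in wild-type libraries (log2 3.63, edgeR adjusted p = 1.67e-06). Milr1, an inhibitory receptor of mast cells, averaged 114 ± 9.93 and 34.5 ± 5.06 CPM in control and wild-type libraries (log2 1.72, edgeR adjusted p = 5.55e-06). Cd72, an ITIM receptor first known from B cells, averaged 136 ± 26.7 and 29.5 ± 10.2 CPM in control and wild-type libraries (log2 2.20, edgeR adjusted p = 1.13e-05). B and plasma cell markers summed to 41.2 to 59.5 CPM in control and 52.5 to 82 CPM in wild-type libraries. In repopulated against wild-type microglia 9 of the 24 were higher and 2 lower, with Cd300lf at 14.8 ± 1.41 CPM in repopulated libraries (log2 2.86, edgeR adjusted p = 2.97e-05). Those 2 lower calls became 0 without repopulated 3, 1 without repopulated 1, repopulated 2 or wild-type 2, and 3 without wild-type 1 or wild-type 3. Without the libraries low in Y-linked transcripts 8 were higher and 1 lower in control than in wild-type libraries.

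The activating side of the same system was higher in control than in wild-type microglia for 6 of 15 tested receptors and adaptors and lower for 0 (median log2 fold change 0.60), and 0 were lower at an unadjusted p below 0.05 or with DESeq2 or limma-voom. Tyrobp, which encodes DAP12, averaged 1786 ± 493 CPM in control and 717 ± 122 CPM in wild-type libraries (log2 1.32, edgeR adjusted p = 0.000223). Trem2, the lipid-sensing receptor that signals through it, averaged 2739 ± 623 CPM in control and 1508 ± 89.4 CPM in wild-type libraries (log2 0.86, edgeR adjusted p = 0.00153). Hcst, the adaptor DAP10, was 2.85-fold higher (edgeR adjusted p = 0.000134) and Fcer1g 1.52-fold higher (edgeR adjusted p = 0.0176). In repopulated against wild-type microglia 3 were higher and 0 lower, although 3 were lower at an unadjusted p below 0.05 (0 with DESeq2 or limma-voom), with Tyrobp at 1842 ± 107 CPM and Trem2 at 2674 ± 24 CPM in repopulated libraries (log2 1.36 and 0.83, edgeR adjusted p = 0.000375 and 0.00545). The count of 6 became 3 without control 1 or wild-type 4, 4 without wild-type 1 or wild-type 2, and 1 without the libraries low in Y-linked transcripts.

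A mixed list of 13 phosphatases, adaptors and other signalling genes linked to inhibitory receptors includes some, such as Csk and Cbl, that are not general ITIM partners. Of the 13, 6 were lower and 0 higher in control than in wild-type microglia (median log2 fold change -0.37). At an unadjusted p below 0.05, or with DESeq2 or limma-voom, 0 were higher. Ptpn6, which encodes SHP-1, averaged 381 ± 50.9 CPM in control and 341 ± 39.1 CPM in wild-type libraries and was not called (log2 0.16, edgeR adjusted p = 0.446). Inpp5d, which encodes SHIP-1, averaged 209 ± 12.8 CPM in control and 294 ± 64.1 CPM in wild-type libraries (log2 -0.49, edgeR adjusted p = 0.0425). Dok3, an adaptor that recruits SHIP-1, was 3.93-fold lower (edgeR adjusted p = 0.000356), and Csk, the kinase that restrains Src-family kinases, was 1.61-fold lower (edgeR adjusted p = 0.0161). The count of 6 became 1 without control 1, 3 without control 2, wild-type 1 or wild-type 4, and 3 without the libraries low in Y-linked transcripts. Of 17 genes of the kinase chain that ITIMs oppose, 2 were higher, a share near that of all genes, and 5 lower (median log2 fold change -0.26). Fyn was 2.33-fold higher (edgeR adjusted p = 0.00222), Syk 1.79-fold lower (edgeR adjusted p = 0.0055) and Btk 1.55-fold lower (edgeR adjusted p = 0.0122). The 5 lower calls became 2 without control 1 or control 2 and 3 without control 3 or wild-type 4, and the 2 higher calls became 1 without control 1, control 3 or wild-type 4. Without the libraries low in Y-linked transcripts 0 were higher and 1 lower, and on the TPM scale 2 were higher and 12 lower.

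Among 17 tested genes for ligands of the receptors, 9 were higher and 2 lower in control than in wild-type microglia, with a median log2 fold change of 1.09. Apoe averaged 14310 ± 5584 CPM in control and 1026 ± 363 CPM in wild-type libraries (log2 3.80, edgeR adjusted p = 8e-07). B2m, the light chain of the MHC class I molecules that Pirb binds, was 2.41-fold higher (edgeR adjusted p = 0.000328), and Fgl2, of the fibrinogen-like family, 2.81-fold higher (edgeR adjusted p = 0.000377). Pianp, the Pilra ligand, averaged 5.63 ± 1.19 CPM in control and 0.0449 ± 0.0899 CPM in wild-type libraries (edgeR adjusted p = 1.3e-05), a level in wild type too low for a fold. Cd47, the Sirpa ligand, averaged 163 ± 7.49 CPM in control and 208 ± 25.5 CPM in wild-type libraries (edgeR adjusted p = 0.0638), and the Havcr2 ligand Lgals9 averaged 149 ± 35.2 and 187 ± 33.7 CPM in control and wild-type libraries (edgeR adjusted p = 0.215). The 2 lower calls became 1 without control 1, control 3 or wild-type 4. In repopulated against wild-type microglia 8 were higher, a count that leaving out 1 library moved to between 4 and 9, with 4 without repopulated 3 or wild-type 1, and 5 without repopulated 1, repopulated 2, control 1 or wild-type 2. Without the libraries low in Y-linked transcripts the counts were 6 higher in control and 4 higher in repopulated microglia than in wild type.

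Of 21 genes for making, attaching and removing sialic acid, the sugar that Cd33 and Siglece bind, 4 were higher and 0 lower in control than in wild-type microglia with edgeR, while the median log2 fold change was negative, at -0.13. At an unadjusted p below 0.05, 3 were lower, DESeq2 called 1 lower and limma-voom 0, and on the TPM scale 3 were higher and 8 lower, so the balance of this list depends on scaling. St8sia6, a transferase that builds disialic acid, averaged 190 ± 31.3 CPM in control and 26.1 ± 6.19 CPM in wild-type libraries (log2 2.86, edgeR adjusted p = 8.16e-08). It averaged 131 ± 3.89 CPM in repopulated libraries, higher than in wild type (log2 2.33, edgeR adjusted p = 1.16e-06). Without wild-type 3, 3 genes of the list were lower in control microglia.

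Among 16 interferon, STAT and NF-κB regulators of Cd274, 5 were lower and 0 higher in control than in wild-type microglia (median log2 fold change -0.26), and Cd274 itself was higher in control microglia. At an unadjusted p below 0.05, 2 were higher, and DESeq2 called 1 higher and limma-voom 0. Cmtm6, which keeps PD-L1 protein at the cell surface, averaged 318 ± 56 CPM in control and 655 ± 59.4 CPM in wild-type libraries (log2 -1.04, edgeR adjusted p = 0.00015). Ifngr1, a chain of the interferon-gamma receptor, was 1.88-fold lower (edgeR adjusted p = 0.000315), Stat3 1.68-fold lower (edgeR adjusted p = 0.00899) and Nfkb1 1.38-fold lower (edgeR adjusted p = 0.014). The 5 lower calls became 3 without control 1 or without the libraries low in Y-linked transcripts, and 3 genes were higher without wild-type 4.

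In repopulated against control microglia edgeR called 0 genes of these 7 lists. Only 0.568% of all genes tested were called, so 0 says little about the lists. At an unadjusted p below 0.05 there were 1 higher and 7 lower other inhibitory receptors, 5 higher and 0 lower phosphatases and adaptors, and 5 higher and 0 lower kinase-chain genes. There were also 6 higher and 0 lower genes of the Cd274 list, 4 higher and 4 lower sialic acid genes, 1 higher and 1 lower gene of the ligand list, and 0 higher and 1 lower activating receptor. No share of all genes at that threshold is given here, so these counts cannot be read as a trend of a list. DESeq2 called 3 other inhibitory receptors and 2 sialic acid genes lower, and 3 phosphatases and adaptors, 1 kinase-chain gene and 2 genes of the Cd274 list higher. Limma-voom called 1 gene of the Cd274 list higher. Of all genes, DESeq2 called 333 higher and 361 lower, and limma-voom 59 higher and 46 lower. Cmtm6 averaged 499 ± 18.6 CPM in repopulated and 318 ± 56 CPM in control libraries (log2 0.65, edgeR adjusted p = 0.0607), and Milr1 averaged 69.1 ± 15.9 and 114 ± 9.93 CPM in repopulated and control libraries (log2 -0.72, edgeR adjusted p = 0.0727).

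**Figure D5:**
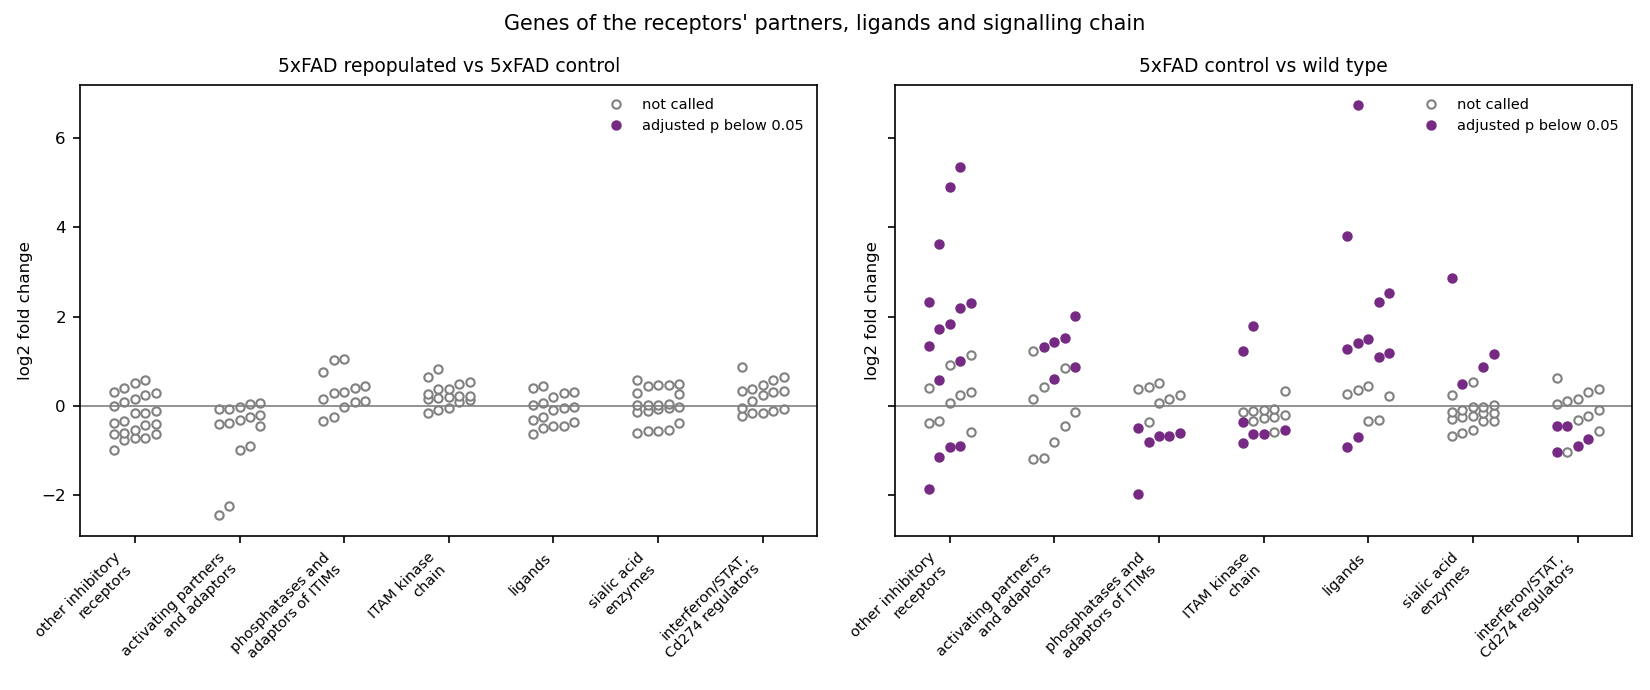
Log2 fold changes of the tested genes of each list in repopulated against control (left) and control against wild-type microglia (right), 1 point per gene, filled where the edgeR adjusted p was below 0.05. No point is filled in the left panel, and the lists of other inhibitory receptors and ligands hold the most filled points above 0 in the right panel, 11 and 9. Pdcd1 is counted in both of these lists.

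For each member called in a comparison, the tested genes with the most similar profile over the 10 libraries were found by the root-mean-square difference of log2 CPM, each gene centred on its own mean. Lilrb4a was nearest to Mamdc2 (0.25) and the chemokine gene Ccl3 (0.30), on a scale where its own deviation from its mean was 1.66. Mamdc2 averaged 40.4 ± 2.07 CPM in repopulated, 86 ± 7.04 CPM in control and 5.12 ± 0.417 CPM in wild-type libraries (SD, n = 3, 3 and 4). Cd274 was nearest to Arhgap26 (0.14) and the tetraspanin gene Cd63 (0.17), against its own deviation of 0.76, Pilra to 1810037I17Rik (0.09) and C1galt1c1 (0.10), and Pirb to Pdlim4 (0.19) and Txnl4b (0.20). Siglece was nearest to Zfp784 (0.18) and Epn2 (0.20), Cd33 to Nsfl1c (0.08) and Elf2 (0.09), and Cd300a to Tiprl (0.04) and Mbnl2 (0.08). These are likenesses over 10 libraries of 3 groups and carry no test.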

How the data were processed

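Per the labels' protocols, RNA of the isolated microglia was purified with TRIzol, and Smart-Seq libraries were made from 1 ng of total RNA. HISAT, Bowtie2 and the build GRCm38.p6 are listed in the submitters' processing notes. Which program made the values, with which version and strand setting, is not given in the sources used here. The table deposited by the authors has 3 values for each gene and library. Its estimated counts, per the file headers, are unnormalised read numbers that need not be whole, and 20.1% of the nonzero ones differed from a whole number by over 0.001, as can occur where reads are divided among similar genes. Its FPKM, deposited beside them, entered no result. Its TPM, which the authors scaled by length and depth, served to compare levels between genes and in 1 alternative.

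After rounding, the counts were analysed with edgeR's quasi-likelihood test (edgeR 4.0.16, limma 3.58.1, DESeq2 1.42.0, R 4.3.3). All 10 libraries entered 1 model of 3 groups, with filterByExpr (12505 genes kept), TMM factors and robust fits. P-values were adjusted by the Benjamini-Hochberg method over all genes tested, and genes were called at 0.05. Fold changes used a prior count of 0.125, an SE is the log2 fold change's size divided by the root of its F statistic, and the biological coefficient of variation was 27.3%. The test was checked on simulated counts, and replicate libraries all differed by more than sampling noise.

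The members, gene lists, tests and alternatives were chosen with earlier results of these data known, and marker and pathway lists carry no set test. The text names all 10 members, up to 4 called genes per list and comparison by smallest p, direct partners of members whatever their values (Lilr4b, Pira, Pilrb and Pdcd1 genes, Pdcd1lg2, Cd47, Lgals9, Ptpn6, Inpp5d, Tyrobp, Cmtm6), and the 2 tested genes nearest in profile to each called member. Cd84, Treml2, Ceacam1 and the marker genes Itgax, Flt3, Cd209a, Tmem119, Cx3cr1, Klrb1c, Ncr1, Gzmb, Folr2 and Fn1 were named after values were seen. Promoter windows came from RefSeq on GRCm38.p6, and the genes were matched by Entrez identifier (19725 matched). Alternatives were other normalisations, tests and filters, GC content and length correction, a replicate block, Y-linked status (threshold 50 CPM over 4 genes), each library left out, the 2 groups compared alone, and other thresholds. Limma on log2 TPM plus 1 was added after seeing the data.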

Additional observations from a re-analysis of the deposited data

Results flagged for a closer look

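Cd33 in wild-type 2, at 223 CPM, lay farther from the other wild-type libraries (202 to 206 CPM) than Dixon's 95% limit allows for 4 libraries, with a gap of 0.842 of the group's range. It was the only 1 of the 10 receptors with such a library in the wild-type group. Chance alone gives about 1 in 20 for each receptor examined, so 1 among 10 is not rare. Without wild-type 2 the call of Cd33 in control against wild type was kept.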

How the results depend on the processing

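Alternatives gave 720 values for the 10 receptors' fold changes, of which 649 kept direction and side of the threshold. Members called in repopulated against control, 2 of 10, became 1 with upper-quartile normalisation, 0 with GC content and length correction, with Y-linked status as a term, without the libraries low in Y-linked transcripts and at an adjusted p of 0.01, and 0 to 2 with each library left out. At an unadjusted p below 0.05 edgeR had 4 of the 10, with no share of all genes at that threshold given here, DESeq2 called 3 and limma-voom 2. In control against wild type the 7 members became 3 without the libraries low in Y-linked transcripts and 4 with at least 1.5-fold, and in repopulated against wild type the 4 became 2 to 5 with each library left out.

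All genes called in repopulated against control, 71, became 694 with DESeq2, 630 with the 2 groups alone, 388 without the libraries low in Y-linked transcripts, 166 with no filter, 146 on log2 TPM, 125 with 5 CPM in 3 libraries, 4 at an adjusted p of 0.01, 1 with Y-linked status as a term and 0 to 328 with each library left out, lowest without repopulated 2 and highest without wild-type 3. In control against wild type 2265 became 3744 on log2 TPM, 1202 without the libraries low in Y-linked transcripts, 1037 at 0.01 and 1315 to 2910 with each library left out. In repopulated against wild type 523 became 799 with DESeq2, 289 without the libraries low in Y-linked transcripts, 256 at 0.01 and 284 to 688 with each library left out. On log2 TPM the split of higher and lower calls was 687 and 3057, against 1260 and 1005, in control against wild type, 131 and 15, against 44 and 27, in repopulated against control, and 316 and 312, against 425 and 98, in repopulated against wild type.

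Fold changes near 0 changed sign, none of them called under either setting. For Sirpa the log2 value was 0.07 with GC content and length correction and -0.21 to 0.04 with each library left out, positive without wild-type 1 (control against wild type), -0.05 with that correction (repopulated against control), and -0.01 to 0.24 with each library left out, negative without wild-type 2, and -0.08 on log2 TPM (repopulated against wild type). Havcr2 gave -0.07 to 0.06 with each library left out, positive without control 2 or wild-type 3 (control against wild type) and -0.06 on log2 TPM (repopulated against wild type), and Pilra -0.01 on log2 TPM there. In repopulated against control Lag3 gave -0.17 with GC content and length correction and Cd274 0.19 without the libraries low in Y-linked transcripts. The causes were not tested.

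Same-numbered libraries of different groups gave correlations of their deviations from -0.105 to 0.071 (9 pairs), and differently numbered ones from -0.109 to 0.129. With so few libraries per group these values cannot decide whether the numbers pair the libraries. With a replicate block 6, 0 and 3 members were called in control against wild type, repopulated against control and repopulated against wild type, and 1464, 25 and 376 of all genes.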
